A study of Mus musculus with 50 samples.

Results

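Expression of 9 genes of the Hippo pathway was followed across mammary gland tumors of mice that had received insulin-like molecules for a long time. The genes were Yap1, Wwtr1, Tead1, Lats2, Ctgf, Cyr61, Ankrd1, Amotl2 and Ajuba. They were picked by gene name and are 9 of the 37701 genes in the deposited table; all 9 were among the 16733 genes with a mean of at least 0.5 RPKM (reads divided by gene length and library size) that were tested. RNA of 50 tumors was sequenced, 10 from each treatment. The mice had been given vehicle, insulin, the insulin analogues glargine or X10, or IGF1, a growth factor related to insulin with a receptor of its own. All mice, those given vehicle included, were p53R270H/+WAPCre females. In this model Cre recombinase, driven by the whey acidic protein promoter, switches on 1 mutant p53 allele in mammary epithelium. Treatment began at an age of 8 weeks, with a subcutaneous injection every other day, and tumors were taken at 1 cm3, 24 h after the last injection. Doses are not in the sample labels, which call the vehicle tumors untreated. The study describes them as equal in effect on blood glucose, with mitogenic potency rising from insulin over glargine and X10 to IGF1. The study chose EMT-like tumors (tumors that have gone through epithelial to mesenchymal transition) with a latency near the median of their group, so they do not stand for all tumors of a group. The tumors were whole tissue, and markers of several cell types were present: Col1a1, a fibroblast collagen, was between 1341 and 23864 RPKM, Krt8, an epithelial keratin, between 2.39 and 1616 RPKM, and Krt5, a basal keratin, was listed at 0 in at least 1 tumor and reached 1036 RPKM in another. In such bulk tumors fewer cells of a type and less RNA per cell cannot be told apart.

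The Hippo pathway is a chain of kinases that holds back growth. The MST kinases activate the LATS kinases, which phosphorylate YAP (gene Yap1) and TAZ (gene Wwtr1) and so keep them out of the nucleus. When the chain is off, YAP and TAZ enter the nucleus and bind the TEAD transcription factors, of which Tead1 is one. Ctgf and Cyr61, secreted matricellular proteins, and Ankrd1, a nuclear ankyrin repeat protein, are widely used as readouts of YAP and TAZ activity. Lats2 and Amotl2 are targets that also act back on the pathway, since LATS2 phosphorylates YAP and TAZ and angiomotin-like 2 binds YAP. Ajuba, a LIM protein, restrains the LATS kinases. The pathway acts largely through protein phosphorylation and location, which RNA levels do not show.

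The steps between the RPKM values gave a library size of 26.6 to 51.9 M reads per tumor (median 40.9 M); the group medians were 35.4 M reads for X10 and between 39.6 and 44.0 M reads for the other groups. No gene of the set was listed at 0, and the lowest value, 4.13 RPKM for Ankrd1 in X10_118, stood on about 243 reads. Tumors are named by their group and the number in their label. Mean similarity with the other tumors (Pearson r of log2 values over the tested genes) was lowest in X10_105, at 0.853, followed by vehicle_174, at 0.879, and vehicle_161, at 0.898.

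The 2 coactivators differed widely in how they varied over tumors. Yap1 (ENSMUSG00000053110, GRCm38 chr9:7931999-8004596, minus strand) had a median of 70.8 RPKM and ranged from 35.3 RPKM in IGF1_160 to 8940 RPKM in vehicle_161, which is 126 times the median. Its SD on the log2 scale, 1.57, was at the 98.1st percentile of the tested genes. Wwtr1 (ENSMUSG00000027803, chr3:57455649-57575910, minus strand) ranged only from 15.0 RPKM in vehicle_174 to 70.9 RPKM in insulin_37 around a median of 35.6 RPKM, an SD of 0.50 at the 63.2nd percentile.

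The high values of Yap1 came from single tumors. After vehicle_161 came IGF1_145 with 2884 RPKM, X10_100 with 1182 RPKM, vehicle_186 with 1048 RPKM and X10_116 with 814 RPKM, and these 5 tumors were the ones with at least 4 times the median. The tumors insulin_13 (278 RPKM), X10_105 (227 RPKM), vehicle_162 (177 RPKM) and X10_118 (167 RPKM) had at least 2 times the median, and the other 41 tumors were below this. High tumors were thus found in the vehicle, X10 and IGF1 groups and, at a lower level, among the insulin tumors. In the glargine group the highest Yap1 value was 88.2 RPKM.

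By group, the lowest, median and highest Yap1 values were 43.3, 88.3 and 8940 RPKM in the vehicle tumors, 48.9, 67.4 and 278 RPKM in the insulin tumors, and 50.8, 71.6 and 88.2 RPKM in the glargine tumors. They were 50.1, 72.6 and 1182 RPKM in the X10 tumors and 35.3, 59.8 and 2884 RPKM in the IGF1 tumors. The group medians were ordered vehicle, X10, glargine, insulin, IGF1, all ranges overlapped, and no neighbours in this order differed beyond their spread (limma, with the other tests of the treatments given further on).

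**Figure D1:**
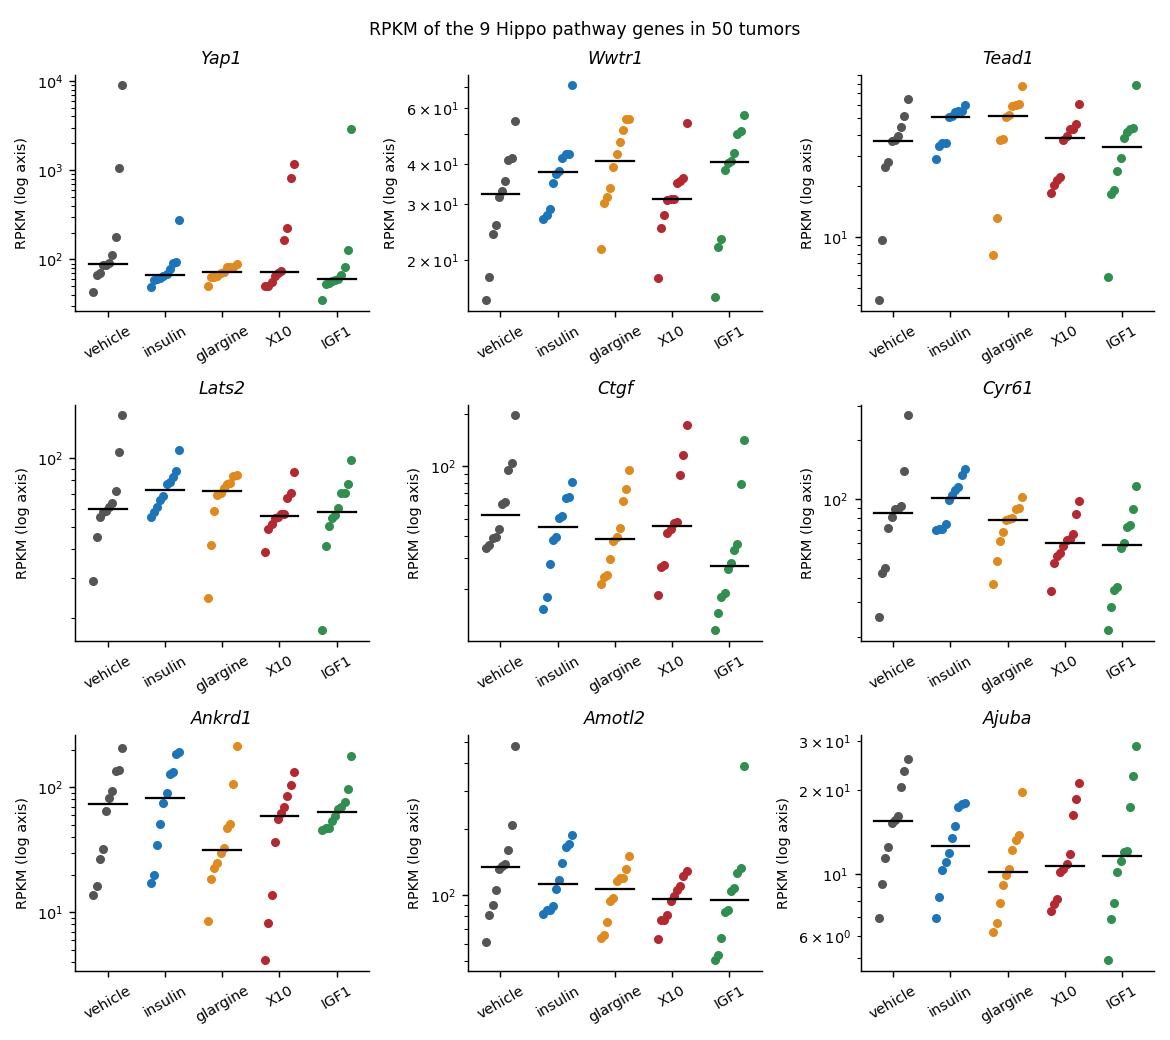
RPKM of each of the 9 genes (log axis, a different range in each panel) in the 10 tumors of each treatment, sorted by value within the group; the black line is the group median. The treatments overlap for every gene, and Yap1 has single tumors far above the rest, up to 8940 RPKM in vehicle_161, while Wwtr1 stays between 15.0 and 70.9 RPKM.

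Many of the genes beside Yap1 on chromosome 9, but not all, were high in the same tumors. Within 5 Mb of Yap1, measured between the lower coordinates of the genes, 30 genes were tested, Yap1 included, and 6 of the other genes had a Pearson r of at least 0.9 with Yap1 in log2(RPKM + 0.5) over the 50 tumors. These were Birc2 (r = 0.97, Spearman rho = 0.65), Dync2h1 (0.96 and 0.81), Birc3 (0.95 and 0.77), Dcun1d5 (0.95 and 0.67), Tmem123 (0.95 and 0.73) and 9230110C19Rik (0.94 and 0.62), and they were the 6 genes most like Yap1 of all 16732 other tested genes. Birc2 and Birc3 encode inhibitors of apoptosis and resemble each other in sequence, so that reads could be split between them. A seventh tested gene with such an r had no position in the annotation used here.

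Birc2, with a median of 9.81 RPKM, was at 60.8 times its median in vehicle_161, 30.8 times in IGF1_145, 10.6 times in X10_100, 12.1 times in vehicle_186 and 8.66 times in X10_116. The order of the 5 tumors was nearly that of Yap1, which was at 126, 40.8, 16.7, 14.8 and 11.5 times its median in them. Counting Yap1, 7 of 7 of the most alike genes were at 4 or more times their median in vehicle_161, IGF1_145, vehicle_186 and X10_116, and 6 of 7 in X10_100, where Dcun1d5 was at 3.84 times. These 7 were picked by r with Yap1 over the same tumors, so their count follows largely from that choice. Of all 30 tested genes in the window, Yap1 included, 12 reached this level in vehicle_161, 14 in IGF1_145 and 17 in X10_100. It was 20 of 30 in vehicle_186 and 14 of 30 in X10_116. In insulin_13 and X10_105, the tumors next in order, none of the 7 was at this level, but 6 and 4 of the 30 were.

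The raised stretch did not have the same ends in each tumor. Pdgfd, a platelet-derived growth factor gene 1.76 Mb before Yap1, was at 95.3 times its median in IGF1_145 and 22.4 times in vehicle_186, but at 1.52 times in vehicle_161 and 0.55 times in X10_116. Casp1, an inflammatory caspase gene 2.63 Mb before it, was at 13.1 times its median in vehicle_186, 7.23 times in X10_100 and 6.80 times in insulin_13, against 0.85 times in vehicle_161. On the other side, Arhgap42, 1.06 Mb after it, was at 22.9 times its median in X10_100 and 13.6 times in X10_105, against 0.62 times in vehicle_161 and 1.09 times in IGF1_145. Mmp genes between Dcun1d5 and Tmem123 did not follow in every tumor: Mmp3, a matrix metalloproteinase, was at 20.0 times its median in vehicle_161, but 0.69 times in vehicle_186. Pdgfd, Casp1, Arhgap42 and Mmp3 were singled out after their values were seen, as were Dcun1d5, Tmem123 and 9230110C19Rik. RNA alone was measured in these files, and the number of DNA copies of the stretch was not analysed here.

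**Figure D2:**
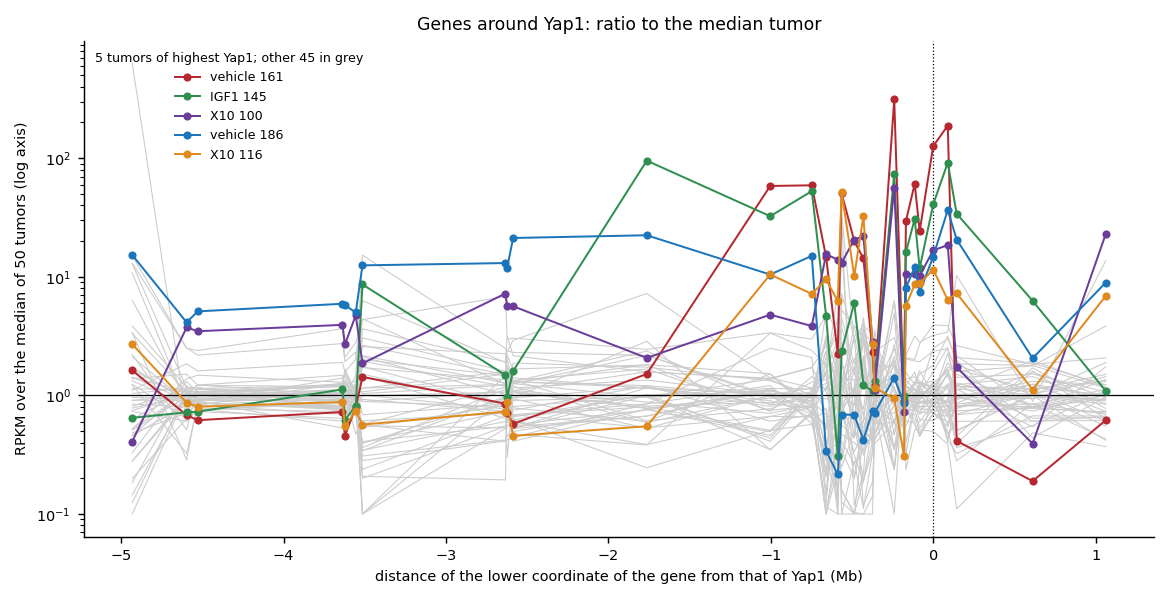
RPKM of the 30 tested genes within 5 Mb of Yap1, as a ratio to the median of the 50 tumors (log axis; ratios under 0.1 are drawn at 0.1), against the distance of the lower coordinate of the gene from that of Yap1 in Mb. The 5 tumors of highest Yap1 are coloured and the other 45 are grey; all 5 rise above the rest around Yap1, and the ends of the raised stretch differ, with Pdgfd at 95.3 times its median in IGF1_145 and 1.52 times in vehicle_161.

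The level of Yap1 relative to Wwtr1 depended on the gene length used. The steps between RPKM values gave the length that the authors had divided by, which was 1438 bases for Yap1 and 4615 bases for Wwtr1, where their exons cover 4171 and 4779 bases in GENCODE M21. As deposited, the ratio of Yap1 to Wwtr1 RPKM had a median of 2.08 and was above 1 in 49 of 50 tumors; on the exon lengths the median was 0.74 and the ratio was above 1 in 10 of 50 tumors. In vehicle_161 it was 371 as deposited and 132.3 on exon lengths, so that Yap1 exceeded Wwtr1 there on both scales. The lengths for Tead1, Lats2 and Amotl2 were likewise short (2403, 1799 and 807 bases, against exon lengths of 10051, 6471 and 4462 bases), and levels of these genes should not be compared with those of other genes on the deposited scale. Comparisons of 1 gene between tumors are not touched by this.

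Tead1 (ENSMUSG00000055320, chr7:112679318-112906807, plus strand) ranged from 4.28 RPKM in vehicle_174 to 78.1 RPKM in IGF1_147, with a median of 38.8 RPKM. The 3 lowest values were those of vehicle_174, IGF1_160 (5.82 RPKM) and glargine_47 (7.90 RPKM), so that low tumors were found in 3 groups. Of the summed RPKM of the 4 TEAD genes, Tead2 made up a median of 58.0%, Tead1 31.5%, Tead3 5.17% and Tead4 4.73%, and Tead2 was the highest of the TEADs in 42 of 50 tumors and Tead1 in 8. On exon lengths these medians were 39.5% for Tead2, 25.2% for Tead1, 26.8% for Tead3 and 6.97% for Tead4, and Tead3 was the highest in 7 tumors, so that the places of Tead1 and Tead3 changed with the length. Tead4 was highest in vehicle_161, at 30.6 RPKM around a median of 5.43 RPKM.

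Of the feedback genes and targets, Amotl2 (ENSMUSG00000032531, chr9:102716672-102733418, plus strand) had its 2 highest values in the 2 tumors of highest Yap1. The lowest, median and highest Amotl2 values were 60.9, 134 and 482 RPKM with vehicle, 81.8, 112 and 188 RPKM with insulin and 63.7, 106.8 and 151 RPKM with glargine. They were 62.9, 96.3 and 129 RPKM with X10 and 50.3, 94.98 and 388 RPKM with IGF1. The tumors vehicle_161 (482 RPKM) and IGF1_145 (388 RPKM) stood apart from the next tumor, vehicle_189, with 209 RPKM. Amotl2 is on the chromosome of Yap1 but far outside the stretch described above. Lats2 (ENSMUSG00000021959, chr14:57689662-57758388, minus strand) ranged from 17.8 RPKM in IGF1_160 to 154 RPKM in vehicle_161, with a median of 62.5 RPKM.

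The tumor vehicle_161 was also the highest of 50 tumors in Ctgf, Cyr61 and Lats2, and at place 2 in Ankrd1 and Ajuba. Ctgf (ENSMUSG00000019997, chr10:24595442-24598683, plus strand) was at 195.1 RPKM there, against a median of 39.7 RPKM over all tumors. Cyr61 (ENSMUSG00000028195, chr3:145646976-145649981, minus strand) was at 267 RPKM, against 72.2 RPKM, and the next tumor, insulin_14, had 143.5 RPKM. IGF1_145, at place 2 of 50 in Yap1, was at place 1 in Ajuba with 28.9 RPKM, 3 in Ctgf with 140.5 RPKM, 4 in Lats2 with 98.2 RPKM, and 5 in Cyr61 with 117.6 RPKM and in Ankrd1 with 177 RPKM. Both tumors were low in Wwtr1, vehicle_161 with 24.1 RPKM at place 43 of 50 and IGF1_145 with 15.4 RPKM at place 49.

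The other 3 tumors with at least 4 times the median Yap1 were not high in all of these genes. X10_116 was at place 45 of 50 in Ctgf (18.4 RPKM), 36 in Cyr61 (57.7 RPKM) and 49 in Ankrd1 (8.16 RPKM). X10_100 was at place 8 in Ctgf (89.3 RPKM) and 22 in Amotl2 (110 RPKM), and vehicle_186 at place 23 in Ctgf (43.6 RPKM) and 7 in Amotl2 (160 RPKM). High Ctgf was also found without such Yap1: X10_105, at place 2 in Ctgf with 171 RPKM, had a Yap1 value of 227 RPKM, and X10_111, at place 4 with 117 RPKM, had a Yap1 value of 50.2 RPKM.

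Ankrd1 (ENSMUSG00000024803, chr19:36111961-36120099, minus strand) was the most variable of the genes after Yap1, with an SD of 1.29 on the log2 scale at the 96.5th percentile of tested genes. It ranged from 4.13 RPKM in X10_118 to 215 RPKM in glargine_62, around a median of 57.4 RPKM. In the IGF1 group its lowest value was 45.7 RPKM, while the other groups each had tumors at or below 17.2 RPKM. Ajuba (ENSMUSG00000022178, chr14:54567472-54577558, minus strand) ranged from 4.90 RPKM in IGF1_158 to 28.9 RPKM in IGF1_145, with a median of 11.8 RPKM.

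The treatments were then compared, to ask whether the pathway genes differed after chronic exposure to ligands of the insulin and IGF1 receptors. With limma on log2(RPKM + 0.5) and Benjamini-Hochberg adjustment over 16733 genes, 0 of the 9 genes differed in any comparison at an adjusted p of 0.05. This was so for X10 against vehicle, where 0.0657% of all tested genes differed, IGF1 against vehicle (0.00598%), insulin against vehicle (0%) and glargine against vehicle (0%). It was also so for X10 and IGF1 together against the other 3 groups (0.155%) and for the moderated F test over the 5 treatments (0.102%). Between the injected ligands, 0 of 9 differed for X10 against insulin (0.102%), X10 against glargine (1.78%), IGF1 against insulin (0.00598%), glargine against insulin (0%), IGF1 against glargine (0%) and IGF1 against X10 (0%). With so few calls among all genes, these counts of the 9 genes do not stand apart from the background. At an unadjusted p under 0.05 were Cyr61, in 4 comparisons and the F test, and Ctgf, in 1 comparison. In these comparisons, IGF1 against vehicle, IGF1 against insulin, X10 against insulin, X10 and IGF1 against the others and the F test, 8.84%, 7.3%, 11.3%, 10.5% and 13.1% of all tested genes were, against 2 of the 9 genes for IGF1 against vehicle and 1 of the 9 for each of the others.

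Cyr61 was the gene of the set with the smallest p-values. Its lowest, median and highest values were 25.4, 85.5 and 267 RPKM with vehicle, 69.98, 102 and 143.5 RPKM with insulin and 37.2, 79.0 and 103 RPKM with glargine. They were 34.4, 59.9 and 98.0 RPKM with X10 and 21.7, 58.4 and 117.6 RPKM with IGF1. Every insulin tumor was at or above 69.98 RPKM, but all groups overlapped. In the comparison of the 20 X10 and IGF1 tumors with the other 30, the log2 fold change of Cyr61 was -0.53 (SE 0.18, unadjusted p = 0.00449, adjusted p = 0.200 by limma). For IGF1 against vehicle it was -0.57 (SE 0.28, 95% interval -1.12 to -0.01, adjusted p = 0.555), for IGF1 against insulin -0.87 (SE 0.28, adjusted p = 0.539), for X10 against insulin -0.69 (SE 0.28, adjusted p = 0.295) and for the F test over treatments the adjusted p was 0.330. None of these passed. The vehicle tumors included vehicle_161, at 267 RPKM, which raised their mean, while the next of them, vehicle_162, had 140 RPKM.

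Ctgf was the only other gene of the set with an unadjusted p under 0.05 in a comparison with vehicle. Its lowest, median and highest values were 34.3, 52.5 and 195.1 RPKM with vehicle, 15.2, 45.2 and 81.0 RPKM with insulin and 21.4, 38.5 and 94.9 RPKM with glargine. They were 18.4, 45.7 and 171 RPKM with X10 and 11.6, 27.1 and 140.5 RPKM with IGF1. The log2 fold change of IGF1 against vehicle was -0.99 (SE 0.39, 95% interval -1.77 to -0.21, unadjusted p = 0.0143, adjusted p = 0.426 by limma). The groups overlapped, with the highest IGF1 tumor above 9 of the 10 vehicle tumors. The mean z-score of the 6 epithelial markers was also lower in the IGF1 tumors, at -0.51 ± 0.54 (SD, n = 10, from -1.59 to 0.42), than in the vehicle tumors, at 0.30 ± 1.20 (SD, n = 10, from -1.60 to 2.20), and its part in the values of Ctgf was not tested.

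For Yap1 the intervals of the change were the widest of the set. The log2 fold change of X10 against vehicle was -0.39 (SE 0.67, 95% interval -1.74 to 0.97, adjusted p = 0.870 by limma), and without vehicle_161 it was 0.24. For glargine against vehicle it was -1.28 (SE 0.67, adjusted p = 0.796), and for insulin against vehicle -1.14 (SE 0.67, adjusted p = 0.533). Without vehicle_161 these were -0.65 and -0.51, and IGF1 against vehicle went from -0.92 to -0.29. The narrowest intervals were those of Wwtr1, for which X10 against vehicle was 0.06 (95% interval -0.37 to 0.50). The insulin analogues did not differ from insulin in Wwtr1 beyond their spread, with 0.06 for glargine (95% interval -0.38 to 0.49, adjusted p = 0.999) and -0.27 for X10 (95% interval -0.70 to 0.17, adjusted p = 0.677). These intervals do not show that the ligands act alike.

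**Figure D3:**
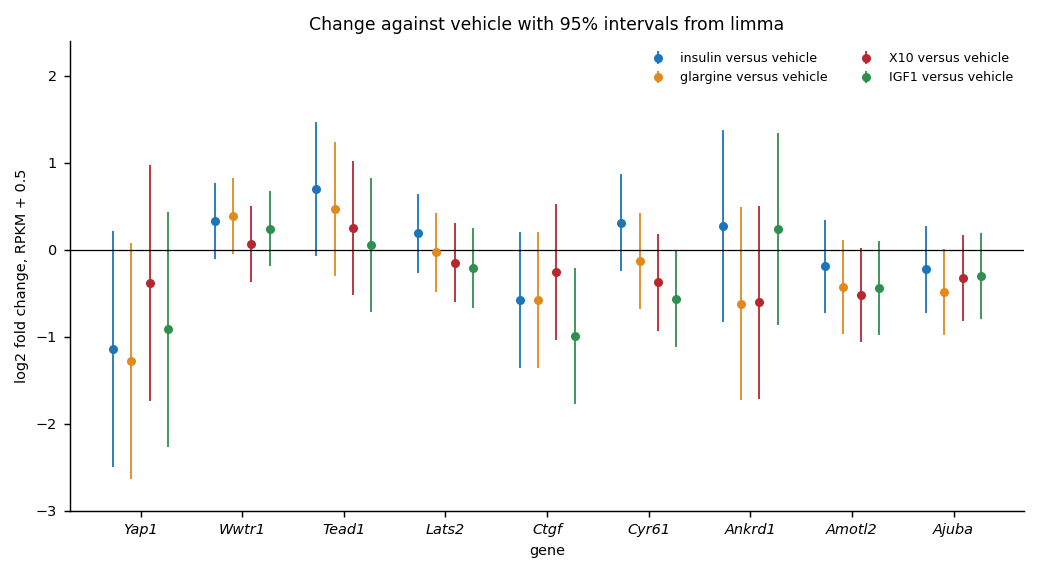
Log2 fold change of each of the 9 genes (log2(RPKM + 0.5) scale) in insulin, glargine, X10 and IGF1 tumors against vehicle tumors, 10 per group; points are the limma estimates and bars their 95% intervals. Yap1 has the widest intervals and Wwtr1 the narrowest, and the intervals of Ctgf (-1.77 to -0.21) and Cyr61 (-1.12 to -0.01) with IGF1 lie below 0 without passing the adjustment.

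The other genes of the pathway were counted in lists of kinases, scaffolds and inhibitors (24 others), of TEADs and their partners (5 others tested) and of YAP and TAZ targets (17 others). For X10 and IGF1 against the other groups, 0 of the 24, 0 of the 5 and 0 of the 17 differed, and their median log2 fold changes were 0.01, -0.20 and -0.17, beside -0.02 over all tested genes. At an unadjusted p under 0.05 were 1, 1 and 3 of them, all lower with X10 and IGF1, where 10.5% of all tested genes were. These are 4 genes, Ptpn14, Vgll4, Ccdc80 and Dock5, since Ptpn14 is on both the first and the last list; Ptpn14 and Dock5 were singled out after their values were seen. For IGF1 against vehicle the medians were -0.03, -0.46 and -0.24, beside 0.02 over all tested genes, and 2 of 24 (both higher with IGF1), 3 of 5 (all lower) and 2 of 17 (both lower) were at an unadjusted p under 0.05, beside 8.84% of all tested genes. The TEAD list there included Tead4 (log2 fold change -0.84, SE 0.36, adjusted p = 0.469 by limma) and Tead3 (-0.60, SE 0.24, adjusted p = 0.426), while Tead2 was at -0.14 (SE 0.26, adjusted p = 0.951). Tead4 was at -0.83 with insulin (adjusted p = 0.387), -0.68 with glargine (adjusted p = 0.796) and -0.38 with X10 (adjusted p = 0.732), so that low values against vehicle were not particular to IGF1. Vgll4, a cofactor that competes with YAP for the TEADs, had -0.46 with IGF1 (SE 0.16, adjusted p = 0.361), -0.40 with X10 (adjusted p = 0.327), -0.38 with glargine (adjusted p = 0.789) and -0.26 with insulin (adjusted p = 0.533). None of the 3 genes of each list with the highest mean RPKM as deposited differed, an order that was not made on exon lengths: among the targets these were Axl, a receptor tyrosine kinase with a mean of 659 RPKM, Ccdc80 with 378 RPKM and Igfbp3, which binds IGF1, with 177 RPKM, and among the kinases and scaffolds Amotl1 (250 RPKM) and Mob1a (131 RPKM), with Amotl2.

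From tumor to tumor, several of the 9 genes moved together. Of the 36 pairs, 21 correlated at an adjusted p of 0.05 (two-sided permutation test on Pearson r, 100000 resamples, Benjamini-Hochberg over the 36 pairs, 50 tumors), 19 of them positively, and the negative ones were those of Wwtr1 with Yap1 and with Ctgf. With the Spearman correlation 9 pairs passed, with values centred within the treatment groups 19, and without vehicle_161 and IGF1_145 it was 6. The share of all gene pairs that pass in this way was not determined, so the 21 pairs may be no trait of the set. An r of at least 0.3 was reached by 25.1% of all tested genes with Wwtr1, 24.9% with Tead1 and 20.4% with Lats2. For the other members this share lay between 4.22% (Yap1) and 8.21% (Amotl2).

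Of the 21 pairs, 3 passed with all 50 tumors, with Spearman's rho, without vehicle_161 and IGF1_145, and after the score of long transcripts described below was regressed out. These checks were made 1 at a time. The pair of Amotl2 and Lats2 had r = 0.67 (rho = 0.57, adjusted permutation p = 0.00012, from the smallest p that the resamples can give) and 0.60 without the 2 tumors. For Amotl2 and Ankrd1 r was 0.51 (rho = 0.54, adjusted permutation p = 0.00132) and 0.43 without them. Tead1 and Lats2 had r = 0.71 (rho = 0.58, adjusted permutation p = 0.00012), and 0.81 without them. With the score regressed out, rho of Tead1 and Lats2 was 0.30 and did not pass (adjusted permutation p = 0.0747). For Amotl2 rho was then 0.42 with Lats2 (adjusted permutation p = 0.0181) and 0.60 with Ankrd1 (adjusted permutation p = 0.00072). With the score out and without vehicle_161 and IGF1_145, r of Amotl2 and Lats2 was 0.34.

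Yap1 passed with 6 of the 8 other genes, most closely with Amotl2 (r = 0.59, rho = 0.40, adjusted permutation p = 0.00132), and with Wwtr1 negatively (r = -0.40, rho = -0.06, adjusted permutation p = 0.0130). Without vehicle_161 and IGF1_145 the r of Yap1 was 0.20 with Amotl2 (adjusted permutation p = 0.322), 0.24 with Lats2, 0.09 with Ctgf, 0.08 with Cyr61, 0.03 with Ajuba and -0.25 with Wwtr1, and 0 of the 8 pairs passed. In ranks Yap1 passed with Amotl2 and Lats2 over all 50 tumors (both rho = 0.40, adjusted permutation p = 0.0236), and rho was 0.32 and 0.33 without the 2 tumors.

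The wider list of YAP and TAZ targets was set beside each gene as well. Of 22 target genes, 11 had r of at least 0.3 with Yap1, where 4.22% of all tested genes had; by Spearman's rho it was 6, where 4.72% had. Among the 11, outside the set, were F3 (tissue factor, r = 0.45), Crim1 (0.43) and Tgfb2 (0.42, rho = 0.53), which were singled out after their values were seen. Without vehicle_161 and IGF1_145 the count was 1 of 22, where 2.79% of tested genes had such an r. For Amotl2 the counts were 10 of 21 other targets with all tumors (8.21% of tested genes) and 12 of 21 without the 2 tumors (18.3%). For Ctgf these were 10 of 21 (6.25%) and 8 of 21 (8.93%), for Lats2 8 of 21 (20.4%) and 7 of 21 (25.1%). For Tead1 they were 8 of 22 (24.9%) and 8 of 22 (25.8%), and for Wwtr1 6 of 22 (25.1%) and 6 of 22 (25.9%), near the share of all genes. For Ajuba 5 of 22 (7.1%) became 1 of 22 (7.66%), for Cyr61 3 of 21 (4.79%) became 1 of 21 (4.67%), and for Ankrd1 it was 2 of 21 both times (5.17% and 7.08%).

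**Figure D4:**
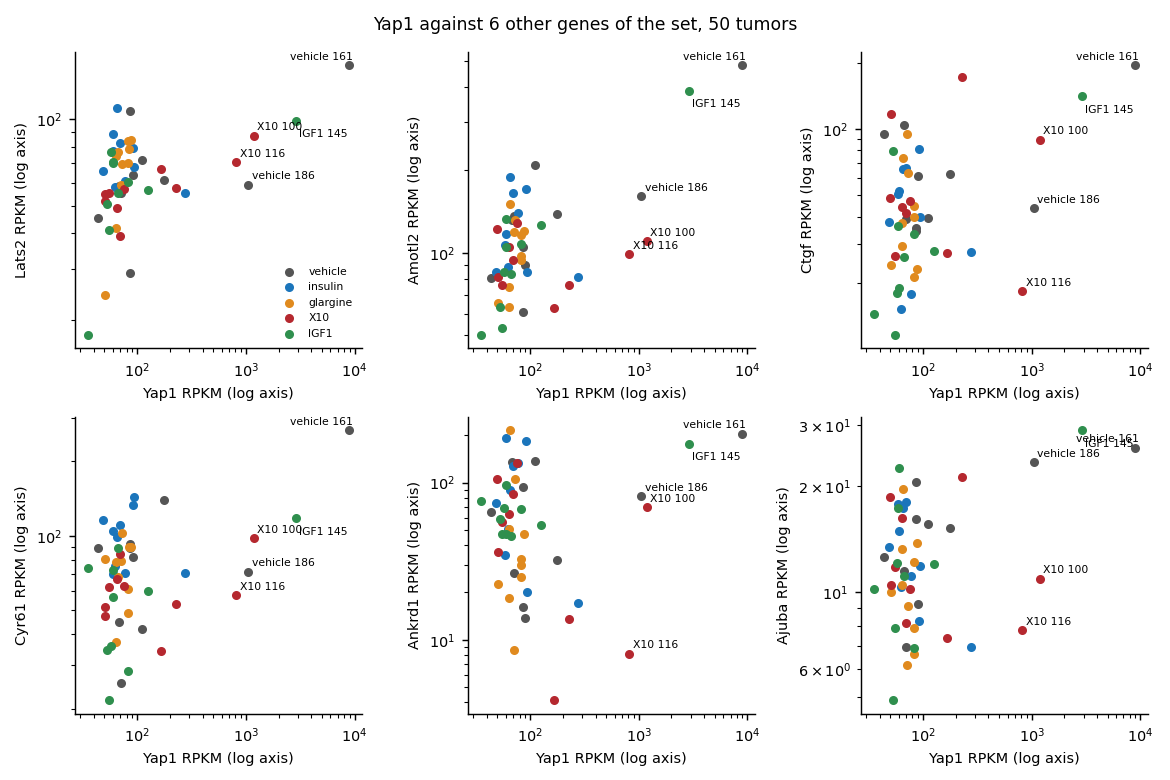
RPKM of Lats2, Amotl2, Ctgf, Cyr61, Ankrd1 and Ajuba against Yap1 RPKM (both axes log) in the 50 tumors, coloured by treatment, with the 5 tumors of highest Yap1 named. The tumors vehicle_161 and IGF1_145 are high on both axes in each panel, while X10_116 is low in Ctgf (18.4 RPKM) and Ankrd1 (8.16 RPKM) at a Yap1 of 814 RPKM.

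**Figure D5:**
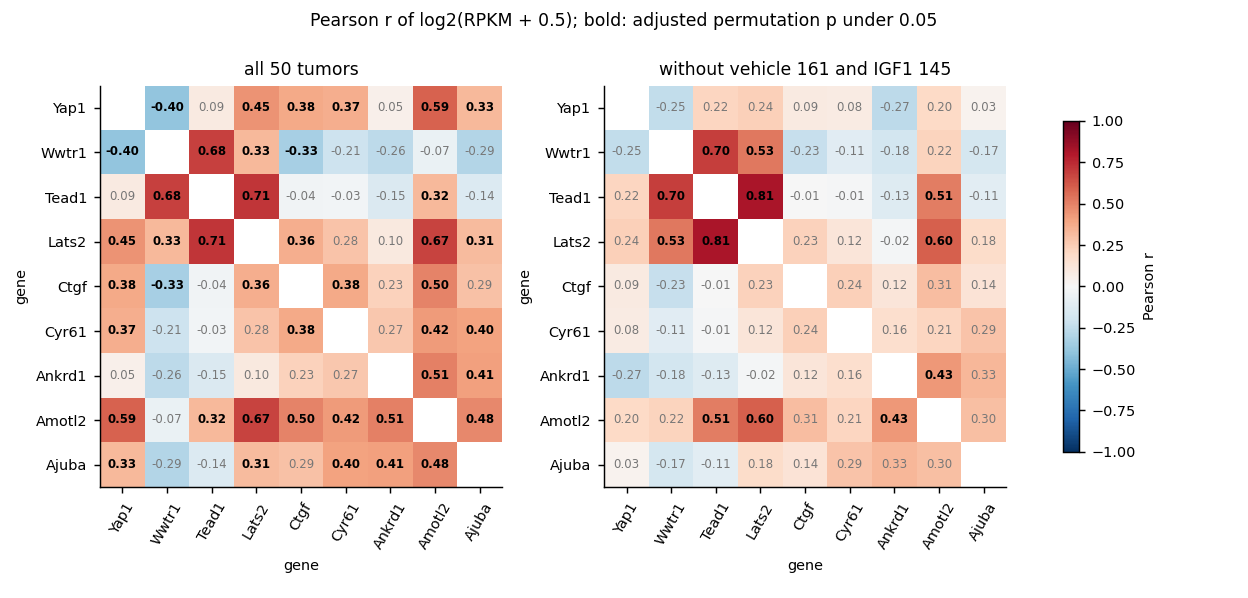
Pearson r of log2(RPKM + 0.5) for the 36 pairs of the 9 genes, on the left over all 50 tumors and on the right without vehicle_161 and IGF1_145; bold numbers have an adjusted permutation p under 0.05. The row of Yap1 has 6 bold values on the left and 0 on the right, while Tead1 with Lats2 (0.71 and 0.81) and Amotl2 with Lats2 (0.67 and 0.60) are bold in both.

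Amotl2 passed with 7 of the 8 other genes over all 50 tumors, and with 3 of them, Tead1, Lats2 and Ankrd1, without vehicle_161 and IGF1_145. Because it passed with the most genes of the set, the 250 bases before its RefSeq start (GRCm38.p6) are shown together with those of 3 targets or pathway genes that correlated with it over all tumors and hold the same letters. Without the 2 tumors Ankrd1 still passed, while r with Amotl2 was 0.21 for Cyr61 (adjusted permutation p = 0.265) and 0.30 for Ajuba (adjusted permutation p = 0.157). With the score of long transcripts regressed out over all 50 tumors, Amotl2 and Tead1 did not pass (r = 0.24, adjusted permutation p = 0.126). Capitals mark GGAATG or its reverse complement CATTCC, the core letters of the TEAD binding motif.
Amotl2: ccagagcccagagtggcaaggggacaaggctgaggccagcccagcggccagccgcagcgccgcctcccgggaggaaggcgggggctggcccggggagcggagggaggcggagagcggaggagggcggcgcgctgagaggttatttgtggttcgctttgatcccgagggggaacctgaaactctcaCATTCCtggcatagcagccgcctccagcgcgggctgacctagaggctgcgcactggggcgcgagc
Ankrd1: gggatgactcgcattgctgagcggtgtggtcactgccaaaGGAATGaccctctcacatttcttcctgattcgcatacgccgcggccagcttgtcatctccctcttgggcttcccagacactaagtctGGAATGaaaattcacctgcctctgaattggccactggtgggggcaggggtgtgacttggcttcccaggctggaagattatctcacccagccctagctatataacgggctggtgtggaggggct
Cyr61: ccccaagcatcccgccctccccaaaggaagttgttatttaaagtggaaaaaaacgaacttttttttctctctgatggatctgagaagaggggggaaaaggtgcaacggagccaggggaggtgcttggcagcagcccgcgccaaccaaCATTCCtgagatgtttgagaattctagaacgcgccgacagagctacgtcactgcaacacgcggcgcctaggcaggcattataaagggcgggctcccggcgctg
Ajuba: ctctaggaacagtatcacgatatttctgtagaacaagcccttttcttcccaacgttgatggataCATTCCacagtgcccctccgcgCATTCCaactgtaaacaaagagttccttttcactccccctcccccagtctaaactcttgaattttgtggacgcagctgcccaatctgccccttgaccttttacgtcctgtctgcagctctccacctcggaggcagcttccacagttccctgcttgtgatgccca
The windows are chr9:102717554-102717803 (plus strand), chr19:36119845-36120094 (minus strand), chr3:145649986-145650235 (minus strand) and chr14:54577662-54577911 (minus strand), each written 5′ to 3′ on the strand of the gene. Amotl2 holds CATTCC 65 bases before the start and Cyr61 103 bases before it. Ankrd1 holds GGAATG at 210 and 123 bases before the start, and Ajuba holds CATTCC in 2 places, the nearer 164 bases before it. For Amotl2 and Ankrd1 the RefSeq start lies inside the span that GENCODE gives the gene. Of the 9 genes 7 had a promoter in the table, and 6 of them held these letters on either strand, where 14.4% of the 27025 genes and 12.6% of the 32851 promoters did; the AP-1 letters TGANTCA were in 0 of 7, where 6.75% of promoters held them. The other 2 with the TEAD letters were Yap1 and Wwtr1, while Lats2 had none in this window, and Ctgf and Tead1 had no entry. These are matches of letters and not measured binding.

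Tead1, Wwtr1 and Lats2 moved with the long transcripts of the tumors. A score was made of the 1351 protein-coding genes with the longest exons (at least 7127 bases), members left out, as their mean z-score in each tumor. Its Pearson r was 0.91 with Tead1 (rho = 0.79), 0.70 with Wwtr1 (rho = 0.66) and 0.67 with Lats2 (rho = 0.56), each with an adjusted permutation p of 9e-05 over 27 relations, from the smallest p that the resamples can give. The share of all tested genes that move with the score in this way was not determined, so this may be no trait of the set. Tead1, with 10051 bases of exon, is itself longer than 97.1% of tested protein-coding genes, while Wwtr1 has 4779. The score was lowest in IGF1_160 (-1.50), vehicle_174 (-1.44) and glargine_47 (-1.09), the 3 tumors of lowest Tead1. With the score regressed out, r of Wwtr1 and Tead1 went from 0.68 to 0.16 (adjusted permutation p = 0.303), and r of Tead1 and Lats2 from 0.71 to 0.35 (adjusted permutation p = 0.0229). The part of the score in the level of these genes was not tested. For the other genes of the set r with the score was between -0.14 and 0.25, and none passed over the 50 tumors. That of Amotl2 was 0.25 (rho = 0.32) over all tumors and 0.56 without vehicle_161 and IGF1_145. Library size and the share of RPKM in processed pseudogenes did not pass with any of the 9. The pseudogene share itself was 3.91% in the X10 tumors (mean, SD 0.90, n = 10) and 5.52% in the glargine tumors (mean, SD 0.55, n = 10). Of the 298 genes called for X10 against glargine, 290 were lower with X10.

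Of the 72 relations with 8 marker scores, 3 passed (permutation test as above, adjusted over the 72). Wwtr1 moved with the proliferation markers (r = 0.52, rho = 0.50, adjusted permutation p = 0.00792), as did Tead1 (r = 0.48, rho = 0.44, adjusted permutation p = 0.0134). Ctgf moved with the epithelial markers (r = 0.48, rho = 0.46, adjusted permutation p = 0.0134), of which all 6 were tested. Centred within treatments 2 of 72 passed, those of Wwtr1 and Tead1, while that of Ctgf did not (adjusted permutation p = 0.0806). With the 2 tumors farthest from each gene's median left out, 0 passed: r was then 0.47 for Wwtr1, 0.27 for Tead1 and 0.37 for Ctgf. By Spearman's rho all 3 passed (adjusted permutation p of 0.0223, 0.0425 and 0.036). Wwtr1 and Tead1 also moved with the long transcript score (r = 0.70 and 0.91). Their relations with the proliferation markers were not repeated with that score regressed out. The part of these markers in the relations among the 9 genes was not tested.

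For Wwtr1, Ajuba and Ankrd1, many of the most alike genes lay on the same chromosome. The genes most like Wwtr1 were Pik3ca, the catalytic subunit of PI3K (r = 0.85), Maml3, a Notch coactivator (0.84), and D3Ertd254e (0.81). Of the 100 genes most like Wwtr1, 45 lie on chromosome 3 with it, 8 of them within 10 Mb, where 4.73% of tested genes do. For Ajuba it was 37 of 100 on chromosome 14, 20 within 10 Mb (3.36%), and for Ankrd1 25 on chromosome 19 (3.05%). Such sharing was common in these tumors: over 15745 autosomal genes the median was 15 of 100, and Wwtr1 was at the 81.6th, Ajuba at the 75.8th and Ankrd1 at the 64.4th percentile. Yap1, with 14 of 100, was near the median, but 12 of its 14 lay within 10 Mb. The other members were below the median, with 11 for Amotl2, 7 for Tead1, 6 for Lats2, 6 for Ctgf and 5 for Cyr61.

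The mean z-score of genes of its chromosome more than 10 Mb away had r = 0.69 with Wwtr1, 0.45 with Ankrd1 and 0.44 with Ajuba (adjusted permutation p of 9e-05, 0.00318 and 0.00322 over 9 relations). The r was at least 0.3 for 47.2% of all autosomal genes tested, so that this is no trait of the set. Negative values passed for Yap1, at -0.49 (rho = -0.08, adjusted permutation p = 0.00153), opposite in sign to its near neighbours, and for Tead1, at -0.32 (rho = -0.27, adjusted permutation p = 0.0405). The other 4 genes did not pass by Pearson r. By Spearman's rho Yap1 and Tead1 did not pass (adjusted permutation p of 0.648 and 0.0847), while Amotl2 (rho = 0.39, adjusted permutation p = 0.0121) and Lats2 (rho = 0.36, adjusted permutation p = 0.0213) did.

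For the other members the most alike genes, given as descriptions over 50 tumors, were as follows. Tead1 was most like Nup98, a nucleoporin (r = 0.96), Prrc2c (0.94) and Tnks, tankyrase (0.93), while the closest to Lats2 were Ston1 (0.79), Fam178a (0.78) and Klf3, a transcription factor (0.77). Ctgf was most like Tmcc1 (0.70), Fads2, a fatty acid desaturase (0.69), and Mgp, matrix Gla protein (0.68). Those of Cyr61 were Cacna1g, a calcium channel (0.68), Bcar1, an adhesion scaffold (0.65), and Ddah1 (0.63), a gene that lies beside it on chromosome 3. Ankrd1 was most like F730043M19Rik (0.62), Akap12 (0.62) and Myl12a, a myosin light chain (0.60). Amotl2 was most like 2900011O08Rik (0.70), Lats2 (0.67) and Irs2, an adaptor of the insulin and IGF1 receptors (0.67). Those of Ajuba were Nop9 (0.69), Rpl15 (0.67) and Rhobtb2 (0.66).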

How the data were processed

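RNA of 50 mammary gland tumors was analysed, 10 per treatment, grouped by the sample labels. Per the labels and the study's methods, poly-A RNA was made into Ion Total RNA-Seq libraries for the Ion Proton; the authors aligned reads with TopHat2 2.0.10 and Bowtie2 to GRCm38 and counted with HTSeq 0.6.1. The deposited RPKM values are reads divided by library size and gene length. Within a gene they are multiples of 1 step, which gave its length: for each gene given a length here, all 50 values lay within 0.0006 RPKM of a whole step. For library size, values were matched to steps within 0.0007 RPKM, and at least 95.2% of those of 1 to 50 steps in each tumor fell on a step that whole reads give.

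All genes whose mean RPKM was 0.5 or more were tested with limma 3.58.1 (R 4.3.3) on log2(RPKM + 0.5), a scale that understates changes of low genes, with the 5 treatments in 1 fit, an intensity trend and Benjamini-Hochberg adjustment. The test was checked on simulated data. Correlations used 100000 permutations (Python 3.11.15, numpy 2.4.6). The mice of the tumors are not named in the labels, so p-values measure the spread between tumors. Promoters and gene names came from RefSeq (GRCm38.p6), positions from GENCODE M21. Genes named are the 9 members, the 3 most abundant or any called genes of each list, all TEADs and the 3 genes most like each member; others are marked. Members and lists were chosen with earlier results of these data known. Alternatives were other pseudocounts, filters, scaling, weights and covariates, and, added after seeing the data, library size as covariate, a long transcript score, exon lengths and leaving out vehicle_161 and IGF1_145. The authors' own differential expression was not used.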

Additional observations from a re-analysis of the deposited data

Results flagged for a closer look

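Within each group of 10 tumors, the gap of the highest and lowest log2(RPKM + 0.5) value to its neighbour, divided by the range of the group, was compared with Dixon's 95% critical value for 10 values. Chance passes this in about 1 in 20 groups if the log2 values are normally distributed. The share of all tested genes that pass was not determined. Of the 45 groups (9 genes in 5 treatments), 5 values passed. Yap1 was apart in IGF1_145, at 2884 RPKM (0.71 of the range), and in insulin_13, at 278 RPKM (0.63). Amotl2 was apart in IGF1_145 as well, at 388 RPKM (0.53). Wwtr1 was apart in insulin_37, at 70.9 RPKM (0.51), and Lats2 was low in IGF1_160, at 17.8 RPKM (0.49). The tumor vehicle_161, with the highest Yap1 of all, did not pass, since vehicle_186 was high too.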

How the results depend on the processing

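No member was called under any of the 12 alternatives; the lowest adjusted p was 0.0581 (limma, Cyr61, X10 against insulin, array weights). Of 531 fold changes of members under alternatives in 5 comparisons, 517 had the same sign as the main value. With array weights the sign changed for Lats2 with glargine (0.048), and for Wwtr1 (-0.041) and Tead1 (-0.048) with X10, and with marker scores as covariates for Tead1 with IGF1 (-0.071). Without vehicle_161, without IGF1_145 or without both, the log2 fold change against vehicle of Amotl2 with insulin lay between -0.19 and 0.0100, of Lats2 with glargine between -0.032 and 0.11, of Cyr61 with glargine between -0.13 and 0.067 and of Yap1 with X10 between -0.39 and 0.24. For X10 and IGF1 against the others it lay between -0.12 and 0.36 for Yap1 and between -0.14 and 0.00077 for Ankrd1. The cause was not tested.

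Counts over all genes moved more. Against vehicle, the 0 genes called for insulin became 2 at a filter of 5 RPKM, 2 with quantile normalization, 1 with array weights, 3 with library size as covariate, and between 0 and 2 without a tumor. The 11 genes of X10 became 24 with all nonzero genes, 6 with marker scores, 19 with array weights, 4 with only the groups compared and 1 with library size. The 1 gene of IGF1 became 0 at a filter of 5 RPKM, with marker scores, array weights or only the groups compared, and 0 to 1 without a tumor. For X10 and IGF1 against the others, 26 became 11 with all nonzero genes, 17 with the higher filter, 513 with array weights and 10 with library size. For the 5 treatments 17 became 0 with all nonzero genes or library size, 6 with quantile normalization, 10 with marker scores, 749 with array weights, and 5 to 24 without a tumor. At an unadjusted p under 0.05, limma had 1865 genes for insulin and 1043 for glargine against vehicle.

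The 21 correlated pairs became 9 with Spearman's rho and 6 without the 2 farthest tumors or without vehicle_161 and IGF1_145; the 3 marker relations became 0 without the 2 farthest tumors. With the long transcript score regressed out 21 pairs passed, of which 18 were among the first 21. On exon lengths the median of Yap1 over Wwtr1 went from 2.08 to 0.74. No paired analysis was possible because the treatments share no tumor numbers.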
